A study of Morus alba var. atropurpurea with 12 samples.

Results

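In mulberry roots (Morus alba var. atropurpurea, cultivar Yuesang10), 67 transcripts stood higher at every dose of cadmium chloride than at the dose below it, out of 17782 transcripts that passed a filter on low values and 22727 listed in any library. They were chosen by their measured levels: for each transcript, the group mean of log2(FPKM + 1) had to increase by at least 0.25 between control and 5 mM, between 5 and 10 mM and between 10 and 20 mM, and by at least 1 between control and 20 mM, with every 20 mM library above every control library. FPKM counts fragments per kilobase of transcript and scales them to the mapped fragments of the library, and a transcript that a table does not list was set to 0. Because these values chose the 67, their differences between doses are given as a description, without a test. The groups were an untreated control and roots kept in nutrient solution with 5, 10 or 20 mM cadmium chloride for 20 days, with 3 libraries each, and all plants shared the same cultivar, the same trimming and the same full-strength Hoagland solution. Whether each library of a group is from its own plants is not in the labels, and they call the tissue root whereas the text on the series speaks of fruit.

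Cadmium is a toxic metal that roots take up mainly through carriers for nutrient metals such as iron, zinc and calcium. Plant cells bind it with thiol compounds such as glutathione and phytochelatins and move the complexes into the vacuole, and cadmium also disturbs the redox balance of the cell. Transcripts that go up in steps with the dose are of interest as a graded readout of exposure, in contrast to those that respond fully at the lowest dose. The tables give transcripts only by identifiers with the prefix XM, which RefSeq uses for messenger RNAs predicted from a genome, and they do not pair them with gene names. No role is therefore given to any member, and neither markers of root cells nor pathway lists could be counted. In bulk roots, more cells of a type and more RNA per cell cannot be told apart.

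The libraries listed between 19381 and 20071 transcripts, and their FPKM sums ran from 883726 to 976884. Depth is known only in relative terms. In 1090 sparsely listed transcripts, 84.1% of 7012 values were whole multiples, to within 0.1, of the FPKM taken as the worth of 1 fragment. Values near 1 fragment set that worth, so they match in part by construction. Of the 3497 values above 1.5 times the worth, 75.4% were whole multiples. The worth spanned a 1.12-fold range over the libraries. It was highest, meaning the shallowest sequencing, in the 3 control libraries (1.05, 1.06 and 1.06, relative to a geometric mean of 1). Over all tested transcripts the median difference from control was 0.09 at 10 mM and 0.06 at 20 mM. Shifting all libraries to the same median of log2(FPKM + 1), called median scaling below, moved these to -0.03 and -0.02. The 67 were few among those that met part of the rule. A step of at least 0.25 was reached by 5435 transcripts between control and 5 mM, by 5301 between 5 and 10 mM and by 3611 between 10 and 20 mM, all 3 steps were reached by 78, and 74 of these also had a total difference of at least 1. The 67 made up 0.377% of the tested transcripts, and the mirrored rule for stepwise decrease found 84 (0.472%). Group means in ascending order, without a minimum step, occurred in 6.47% of all tested transcripts.

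The difference between 20 mM and control, called the rise below, had a median of 1.55 log2 units over the 67 and ran from 1.04 to 3.81, against a median of 0.06 over all tested transcripts. The median steps were alike in size, at 0.50 between control and 5 mM, 0.49 between 5 and 10 mM and 0.45 between 10 and 20 mM, where the medians of all tested transcripts were 0.07, 0.04 and -0.05. In plain FPKM, the mean at 20 mM over the mean in control was 3.62 in the median of the 65 members that a control library listed, from 2.20 to 35.3, and it exceeded 10 in 8 of them. The 2 other members were listed in no control library, and no ratio is given for them. The means in plain FPKM also ascended over the 4 groups in 65 of the 67. In the exceptions, XM_010093870.1 and XM_010089304.1, 1 high library at 10 mM (18.05 and 30.33 FPKM) put the mean there above that at 20 mM. Members of every abundance took part, with 13 at a mean of at least 100 FPKM at 20 mM, 35 between 10 and 100 FPKM and 19 below 10 FPKM. Their joint share of a library's FPKM sum was 0.163% ± 0.0399 in control libraries and 0.244% ± 0.0174 in those at 5 mM (SD, n = 3 each). At 10 mM the share was 0.341% ± 0.0947 and at 20 mM it was 0.475% ± 0.0316.

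**Figure D1:**
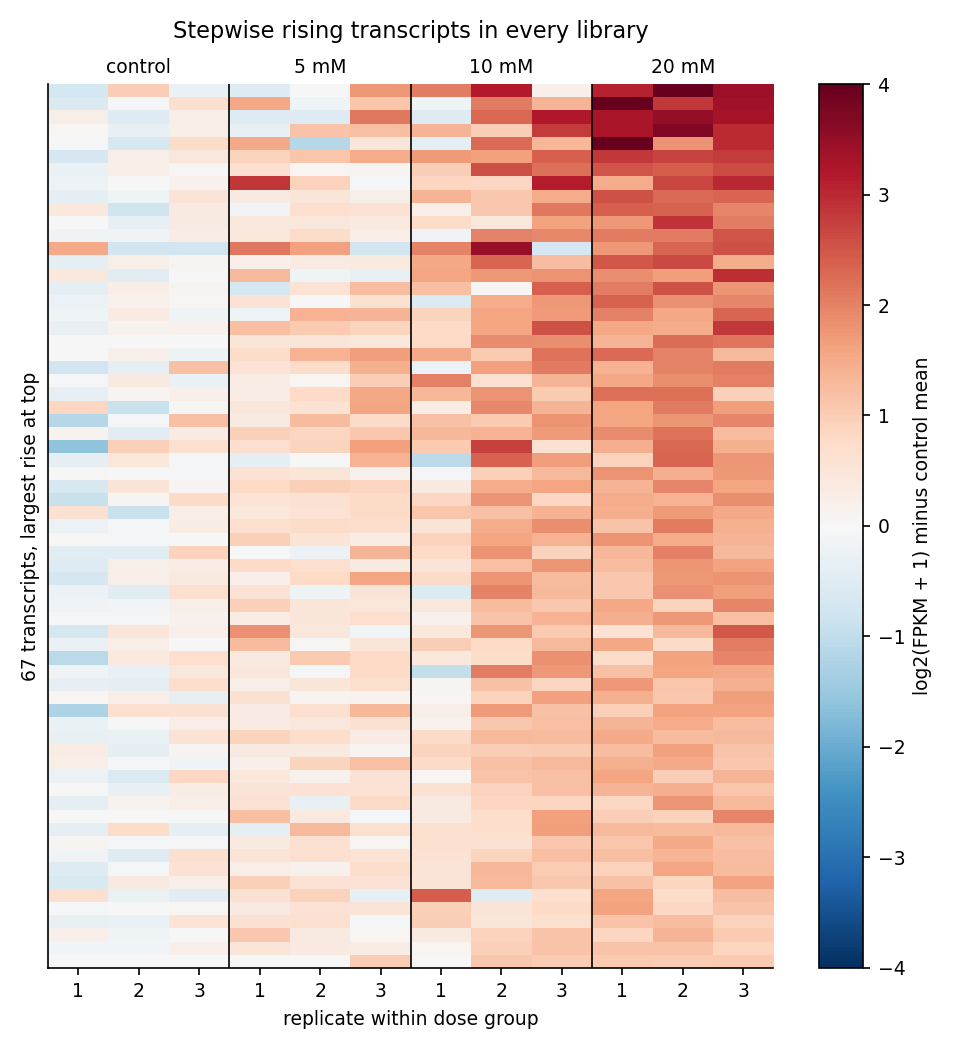
The level of the 67 transcripts (rows, largest rise at the top) in each of the 12 libraries (columns, by dose group and replicate), as log2(FPKM + 1) minus the control mean of the same transcript, with colours that stop 4 units above and below 0. The 20 mM columns are the darkest red, and within the 10 mM group the column of replicate 1 is paler than those of replicates 2 and 3.

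One transcript separated all 4 groups. XM_010114875.1 had 2.98, 6.52 and 7.71 FPKM in control, 10.87, 12.77 and 16.82 FPKM at 5 mM, 19.85, 18.99 and 32.38 FPKM at 10 mM, and 44.71, 40.87 and 43.62 FPKM at 20 mM. Every library of a dose was above every library of the dose below, which held for 3 of all tested transcripts (0.0169%), counting it. Its smallest step, 0.75 log2 units, was the largest smallest step of the 67, and its rise was 2.79. XM_010099001.1, named after its values were seen, separated every pair of doses except 5 mM and control. It had 18.35, 20.62 and 34.49 FPKM in control, 30.56, 33.13 and 27.63 FPKM at 5 mM, 61.49, 50.6 and 67.09 FPKM at 10 mM, and 143.43, 116.54 and 122.03 FPKM at 20 mM. The 5 mM libraries thus lay inside the range of the controls.

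Such separation between neighbouring doses was the exception. Of the 67, 9 had 2 neighbouring pairs of groups without overlap, 23 had 1 and 34 had none. Between 5 mM and control 19 members did not overlap (9.66% of all tested transcripts were higher without overlap), between 10 and 5 mM 11 did not (10.5%), and between 20 and 10 mM 14 did not (6.43%). More were separated over wider gaps in dose, with 33 between 10 mM and control (12.5% of all tested) and 46 between 20 and 5 mM (8.63%). All 67 were separated between 20 mM and control because the rule asked for it (12.2% of all tested). A member is thus stepwise in its group means, and for most of them single libraries of neighbouring doses overlapped.

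The 3 members with the largest rise differed in their spread at 20 mM, which was wide in 2 of them. XM_010107478.1 had 0.38, 3.39 and 0.85 FPKM in control, 0.58, 1.25 and 6.52 FPKM at 5 mM, 8.16, 19.33 and 1.59 FPKM at 10 mM, and 17.83, 67.03 and 23.06 FPKM at 20 mM. Its rise of 3.81 log2 units was the largest, and replicate 2 stood far above the other 20 mM libraries. XM_010101205.1 had 1.2, 2.1 and 4.16 FPKM in control, 8.51, 1.91 and 6.12 FPKM at 5 mM, 1.92, 12.71 and 7.49 FPKM at 10 mM, and 103.8, 22.11 and 32.33 FPKM at 20 mM. The 5 and 10 mM libraries overlapped and 70.7% of its rise of 3.72 fell in the step between 10 and 20 mM, the highest such share among the 67. XM_010100667.1 was the member with the third largest rise, at 3.37. It had 0.69, 0 and 0.71 FPKM in control, 0, 0 and 5.10 FPKM at 5 mM, 0, 6.03 and 12.12 FPKM at 10 mM, and 12.64, 15.42 and 13.17 FPKM at 20 mM. Its 20 mM libraries were close together, whereas at 5 and 10 mM some libraries did not list it at all.

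A more even course was seen in XM_010089355.1, whose smallest step was 0.69 log2 units. It had 1.19, 0.67 and 1.42 FPKM in control, 0.70, 3.56 and 3.76 FPKM at 5 mM, 4.36, 3.12 and 13.23 FPKM at 10 mM, and 18.92, 25.93 and 15.29 FPKM at 20 mM. The 20 mM libraries were above all others, and the 5 and 10 mM libraries overlapped. XM_010093870.1 came next by its smallest step of 0.59, but its values did not form steps within the groups. It had 3.81, 0 and 0 FPKM in control, 6.25, 4.26 and 0 FPKM at 5 mM, 5.72, 18.05 and 0.06 FPKM at 10 mM, and 4.57, 7.47 and 8.89 FPKM at 20 mM. A library at or near 0 was present in each group but the last, and the groups overlapped except for 20 mM and control.

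**Figure D2:**
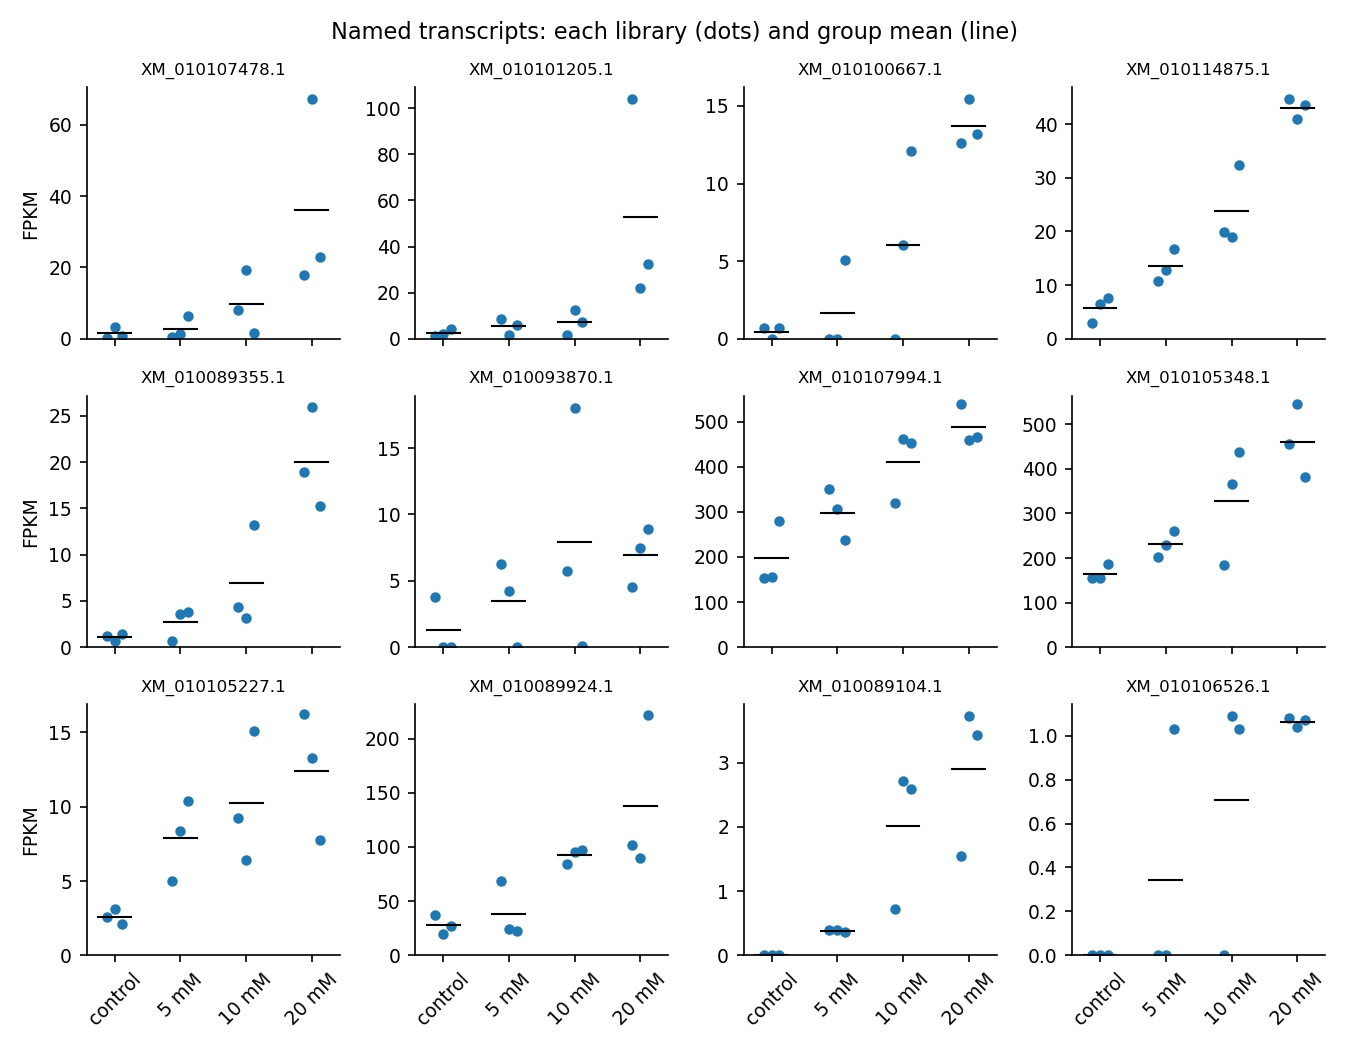
FPKM of 12 named transcripts in each library (dots, from left replicates 1, 2 and 3) and their group means (lines) by dose, each panel on its own linear scale from 0. XM_010114875.1 ascends without overlap, and XM_010106526.1 takes only the values 0 and about 1 FPKM.

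Among abundant transcripts the increase was smaller in ratio but large in FPKM. XM_010107994.1, the most abundant member at 20 mM, had 153.97, 156.58 and 280.05 FPKM in control, 350.35, 306.91 and 236.56 FPKM at 5 mM, 319.03, 461.28 and 453.47 FPKM at 10 mM, and 538.4, 459.59 and 465.4 FPKM at 20 mM. Its mean at 20 mM was 2.48 times that in control, and 46.7% of its rise fell in the step between control and 5 mM. XM_010105348.1 had 154.62, 154.23 and 186.49 FPKM in control, 203.37, 229.64 and 260.67 FPKM at 5 mM, 184.4, 365.26 and 437.12 FPKM at 10 mM, and 456.75, 544.58 and 380.89 FPKM at 20 mM. Its 5 mM libraries were all above the controls, and replicate 1 at 10 mM was below those 5 mM libraries. The 13 members with at least 100 FPKM at 20 mM had a median rise of 1.42 log2 units and a median ratio of means of 2.57, and the 35 between 10 and 100 FPKM had 1.73 and 3.32. The 19 below 10 FPKM had a median rise of 1.55 and a ratio of 5.49 over the 17 that a control library listed. Adding 1 FPKM before the logarithm understates the change of low transcripts. The minimum rise of the rule therefore asks a larger ratio of them, which sets part of this order of ratios.

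The 67 differed in where most of the increase lay. The step between control and 5 mM was the largest in 32 members, that between 5 and 10 mM in 14 and that between 10 and 20 mM in 21. One step held more than 50% of the rise in 24 members, and in 17 each step held at least 25%. Members with their largest step to 20 mM had the larger rises, with a median of 2.06 log2 units, against 1.55 for those with the largest step to 10 mM and 1.54 for those with the largest step to 5 mM. Abundance differed too, though a large step to 20 mM itself lifts the level there. The median mean at 20 mM was 36.0 FPKM where the step to 20 mM was the largest, 15.8 FPKM where the step to 10 mM was and 13.0 FPKM where the step to 5 mM was. In control the medians were closer, at 7.61, 5.87 and 4.02 FPKM in the same order.

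Each extreme of this range was marked by 1 transcript. In XM_010105227.1, 68.4% of the rise of 1.85 lay between control and 5 mM, the highest share for that step. It had 2.57, 3.13 and 2.10 FPKM in control, 4.97, 8.39 and 10.37 FPKM at 5 mM, 9.27, 6.43 and 15.08 FPKM at 10 mM, and 16.21, 13.29 and 7.78 FPKM at 20 mM. Every cadmium library was above every control, and the 3 cadmium groups overlapped. In XM_010089924.1, 66.5% of the rise of 2.16 lay between 5 and 10 mM. It had 37.6, 20.14 and 27.52 FPKM in control, 68.74, 24.26 and 22.14 FPKM at 5 mM, 84.5, 94.92 and 97.44 FPKM at 10 mM, and 101.66, 89.54 and 221.82 FPKM at 20 mM. The 10 mM libraries all lay above the lower doses, and at 20 mM 1 of 3 libraries stood far above them.

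**Figure D3:**
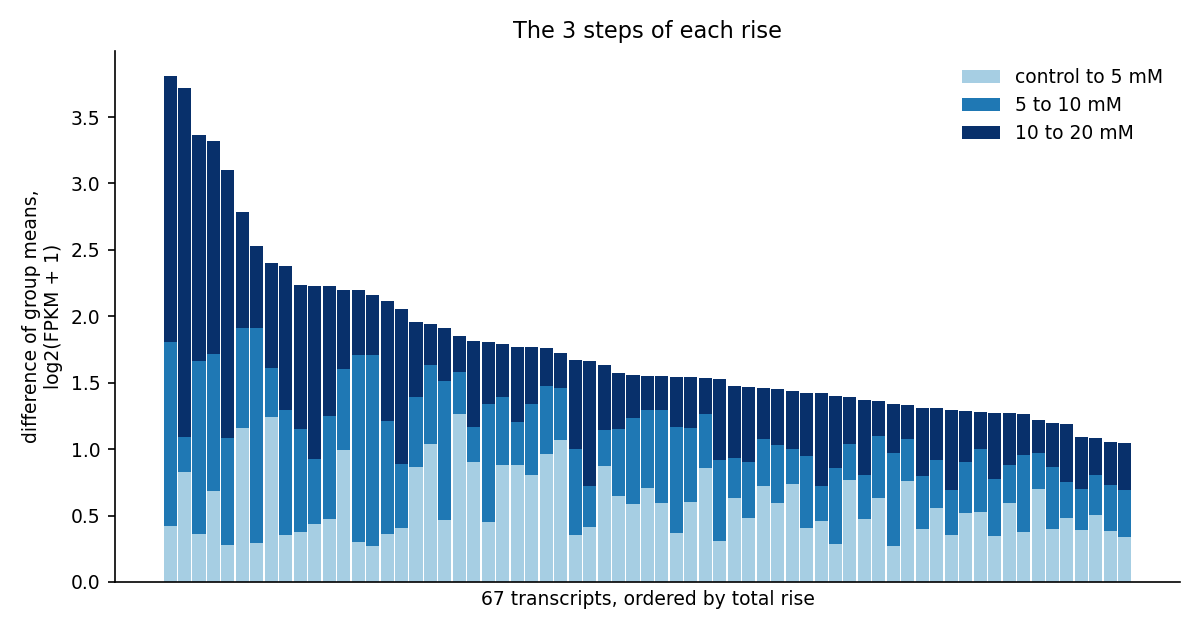
The 3 steps of the rise for each of the 67 transcripts, stacked from the bottom as control to 5 mM, 5 to 10 mM and 10 to 20 mM, in log2(FPKM + 1) units of the group means and ordered by the total rise. The dark top segment is longest among the largest rises at the left, and no segment is shorter than 0.25, as the rule sets.

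The 10 mM group was the least even. Replicate 1 at 10 mM was the lowest of its group in 48 of the 67 members (71.6%), against 34.6% of all tested transcripts, and the highest in 4. The median difference of the 67 from their control means was 0.65 log2 units in that library, next to the 0.49, 0.57 and 0.62 of the 5 mM libraries, whereas replicates 2 and 3 at 10 mM had 1.28 and 1.37 and the 20 mM libraries 1.49, 1.72 and 1.67. Over all tested transcripts the 10 mM libraries were at 0.10, 0.13 and 0.08 and did not stand apart on this measure. In 35 members (52.2%) replicate 1 at 10 mM lay below the 5 mM mean, beside 45.9% of all tested transcripts. Replicates 2 and 3 at 10 mM lay below it in 4 (5.97%) and 3 members (4.48%), beside 45.8% and 48.4% of all. The rule favours such low shares, since it set the 10 mM mean above the 5 mM mean. With the rule applied without the library in question, replicate 1 lay above the 5 mM mean in 20 of 59 (33.9%), beside 53.6% of all. Replicates 2 and 3 did so in 44 of 51 (86.3%) and 42 of 52 (80.8%), beside 53.8% and 51.2%. The 5 mM mean in this comparison was still among the values that the rule used. These shares are therefore not free of the selection, and the shares of all transcripts are not a like comparison. The median SD within the 10 mM group was 0.60 log2 units for the 67, beside 0.40 in both control and 5 mM libraries and 0.32 among those at 20 mM. Over all tested transcripts it was 0.32 within the 10 mM group, 0.34 in control, 0.27 at 5 mM and 0.30 at 20 mM. The rule set every 20 mM library above every control. For a given rise this favours close values in control and at 20 mM, and no such demand was made at 5 or 10 mM. Even so, the 67 spread more than all tested transcripts in control (0.40 beside 0.34) and slightly more at 20 mM (0.32 beside 0.30). Among the controls, replicate 3 was the highest of its group in 35 members (52.2%), beside 39.1% of all tested transcripts, and replicate 1 the lowest in 34 (50.7%), beside 25.0% of all.

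**Figure D4:**
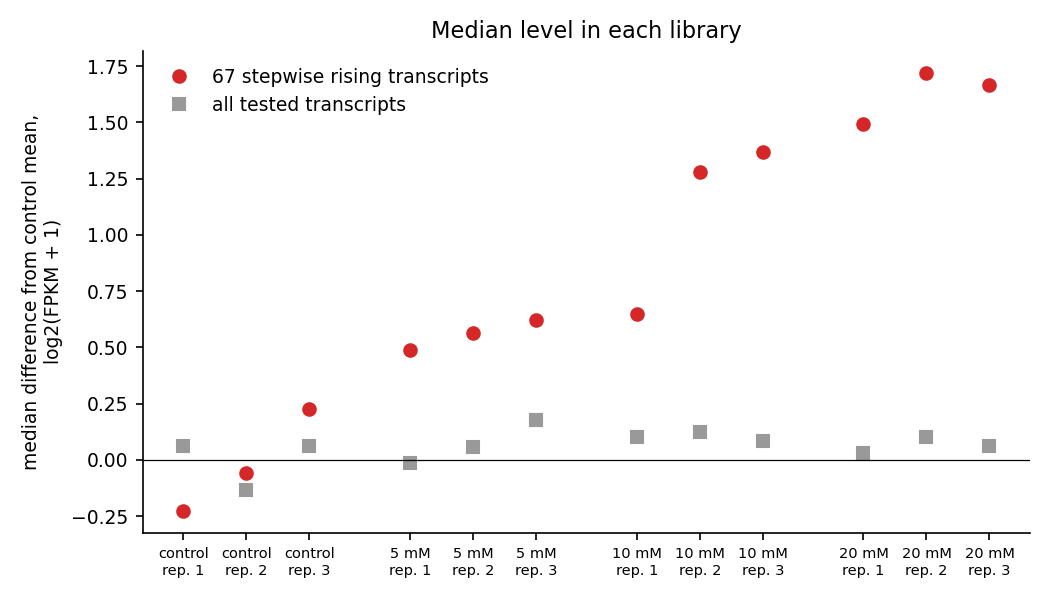
Median difference from the control mean, in log2(FPKM + 1), of the 67 transcripts (red circles) and of all tested transcripts (grey squares) in each of the 12 libraries. Replicate 1 at 10 mM, at 0.65, lies with the 5 mM libraries, and the grey squares stay between -0.14 and 0.18.

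Single members show the size of this gap. XM_010108156.1, named after its values were seen like the next one, had 25.6, 46.58 and 32.38 FPKM in control, 26.23, 34.19 and 91.04 FPKM at 5 mM, 15.9, 178.11 and 110.58 FPKM at 10 mM, and 65.32, 172.75 and 117.27 FPKM at 20 mM. XM_010110379.1 had 22.79, 20.52 and 35.24 FPKM in control, 34.96, 24.76 and 45.31 FPKM at 5 mM, 12.79, 109.39 and 86.57 FPKM at 10 mM, and 59.09, 77.86 and 74.38 FPKM at 20 mM. In both, replicate 1 at 10 mM was the lowest of all 12 libraries and the other 10 mM libraries reached or passed 20 mM levels. Without that library, the median step between 5 and 10 mM over the 67 was 0.70 and that between 10 and 20 mM was 0.23, below the minimum of the rule. Then 29 of the 67 met the rule, and 35 of the 38 that did not had a last step under 0.25. Leaving out replicate 2 or 3 at 10 mM acted on the other step, with 38 and 34 members still meeting the rule and 24 and 28 failing between 5 and 10 mM. In the median over the 67, replicate 1 at 10 mM thus lay near the 5 mM level and the others nearer the 20 mM level. This did not hold for each member. Replicate 1 was below the 5 mM mean in 35 (52.2%, beside 45.9% of all tested). Replicates 2 and 3 were above the 20 mM mean in 17 (25.4%, beside 55.6%) and 16 (23.9%, beside 52.4%). In XM_010099001.1 all 10 mM libraries lay between those of 5 and 20 mM.

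Membership was also examined library by library. Over the 12 libraries left out in turn, the number of the 67 that still met the rule ran from 29 to 65, with a median of 9 of 12 such selections per member. Only 3 members met it in all 12 and also when any 1 replicate number was left out of all groups. They were XM_010114875.1, XM_010089355.1 and XM_010104253.1. The last, named after its values were seen, had 0, 0 and 0.36 FPKM in control, 0.51, 0.84 and 0.32 FPKM at 5 mM, 0, 3.37 and 3.21 FPKM at 10 mM, and 3.68, 3.72 and 5.30 FPKM at 20 mM. Its levels were low throughout, and replicate 1 at 10 mM did not list it.

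Libraries that took no part in a selection give values that the rule did not use. When replicate 1 of all groups was left out, the other 8 libraries gave 62 transcripts, of which 24 were among the 67, and in the 4 libraries left out 52 of the 62 (83.9%) were higher at 20 mM than in control, beside 47.9% of all transcripts passing the filter. For replicate 2 it was 58 of 93 (62.4%), beside 61.7%, a share at the background. For replicate 3 it was 75 of 106 (70.8%), beside 49.2%. A difference of at least 1 log2 unit between 20 mM and control was found in 31 of 62 (50.0%), 37 of 93 (39.8%) and 40 of 106 (37.7%), beside 6.75%, 14.9% and 6.72% of all. The 67 also spread more within groups than all tested transcripts (median SD of 0.48, beside 0.36). Wider spread gives more such differences in either direction. Decreases of that size were not counted, and the part of the spread in these shares was not tested. All 3 steps were upward in 12 of 62 (19.4%), 15 of 93 (16.1%) and 14 of 106 (13.2%), beside 4.61%, 7.93% and 4.73%. Most of the transcripts chosen on 8 libraries thus did not ascend through all the steps in the libraries left out.

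Single steps varied with the replicate number. Among the chosen, the step to 20 mM was upward in 74.2% in replicate 1, beside 44.5% of all transcripts, but in 44.1% and 46.2% in replicates 2 and 3, beside 47.4% and 49.4%. The step between 5 and 10 mM showed the opposite, upward in 56.5% in replicate 1, beside 59.0%, and in 80.6% and 71.7% in replicates 2 and 3, beside 54.1% and 42.4%. Replicate 1 at 10 mM is the library whose median lay near the 5 mM level. Each share rests on 1 library per dose. Same-numbered control and 10 mM libraries also deviated together from their group means over all tested transcripts (correlations of 0.268, 0.170 and 0.176). For 5 mM and control the correlations were 0.0205, 0.128 and 0.202, and for 20 mM and control -0.0241, -0.146 and -0.187. The libraries left out and their steps may thus not be independent of each other, and any part of this in the shares was not tested.

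**Figure D5:**
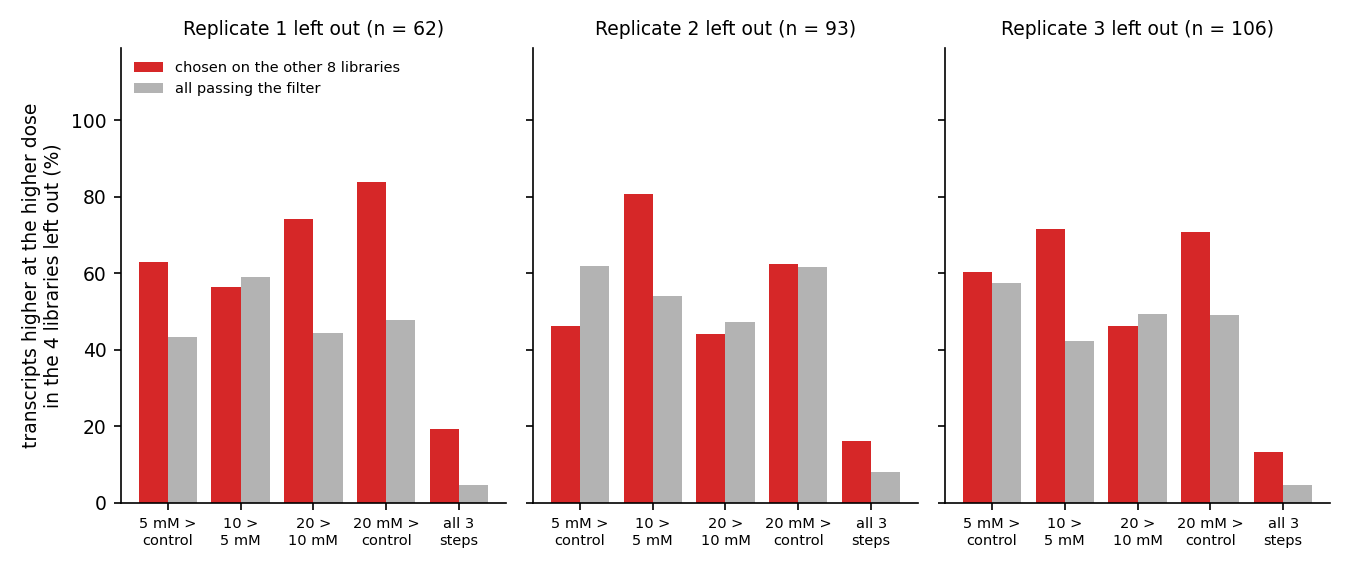
Share of transcripts that were higher at the higher dose in the 4 libraries left out, for transcripts chosen by the rule on the other 8 libraries (red) and for all passing the filter (grey), with 1 panel per replicate number left out. For all 3 steps together the red bars, at 19.4%, 16.1% and 13.2%, exceed the grey ones, whereas for 20 mM against control in replicate 2 both stand near 62%.

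The tests over all transcripts were fitted with limma, with p-values adjusted by the method of Benjamini and Hochberg over the 17782. As the rule used these contrasts, the members' counts only place them among the calls. At 20 mM against control 29 of the 67 were called higher at an adjusted p under 0.05, where 0.579% of all tested transcripts were. At 10 mM against control 1 was, XM_010114875.1, where 0.0956% of all were. A fit blocked on replicate number gave 1 as well. Between 20 and 5 mM 2 were called, where 0.107% of all were. With limma 0 members were called at 5 mM against control, between 20 and 10 mM, or between 10 and 5 mM, where 0.0112%, 0.00562% and 0.00562% of all were called higher. At an unadjusted p under 0.05 there were 11, 10 and 9 members in these comparisons, where 4.95%, 4.29% and 7.05% of all were. No single step of any member passed the adjusted threshold. The count of 29 was lower in most selections with fewer libraries, and whether this came from the library left out or from the smaller number was not tested. With members chosen anew, leaving out replicate 1 or 2 of the control gave calls in 8 of 63 and 16 of 78. Leaving out replicate 1, 2 or 3 at 20 mM gave 10 of 81, 8 of 70 and 18 of 79. Leaving out replicate 1 or 2 at 5 mM gave 19 of 51 and 15 of 65.

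At the low end, some members appeared to rest on a handful of fragments. In 5 of the 67 all listed values lay within 0.15 of whole multiples of the worth of 1 fragment, up to 12 fragments in a library. XM_010106526.1 was listed in no control library and in 1 library at 5 mM (1.03 FPKM), 2 at 10 mM (1.09 and 1.03 FPKM) and 3 at 20 mM (1.08, 1.04 and 1.07 FPKM). Each of these values was read as 1 fragment, the smallest number that fits, which gives 6 fragments in all for this member. Near-equal values alone cannot tell 1 fragment each from another equal number. XM_010095278.1, named after its values were seen, came to 15 fragments on the same reading, with 2 in each 20 mM library and 1 in the 3 controls together. XM_010089104.1, listed in no control library either, had 0.39, 0.39 and 0.37 FPKM at 5 mM, 0.73, 2.72 and 2.59 FPKM at 10 mM, and 1.54, 3.73 and 3.44 FPKM at 20 mM. Read in the same way, these correspond to 1 fragment in each 5 mM library, to 2, 7 and 7 fragments at 10 mM and to 4, 10 and 9 fragments at 20 mM. At such depth the absence from control libraries does not show that the transcript was absent from control roots.

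The limits of the rule cut through closely spaced values. The smallest step lay under 0.30 in 26 of the 67. XM_010106335.1 passed with a last step of 0.2505 and a rise of 1.22, and XM_010106331.1 with a last step of 0.2536 and a rise of 1.55. Just outside, XM_010111967.1 had a first step of 0.2495, later steps of 1.25 and 1.88 and a rise of 3.38. XM_010106656.1 had a first step of 0.2494, later steps of 0.70 and 1.13 and a rise of 2.08. Both excluded transcripts thus had a larger rise than most members.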

How the data were processed

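Per the file headers, each library has a deposited table of FPKM per transcript, in which values start at 0.01 and zeros are left out. The sources used here name no aligner, counting tool, genome build or annotation. Unlisted transcripts were set to 0. FPKM values within a library are relative, so abundant transcripts that change can move the rest, and reads shared by similar transcripts could not be traced.

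Values were analysed as log2(FPKM + 1). The 17782 transcripts that reached 1 FPKM in 3 or more libraries were tested with limma 3.58.1 in R 4.3.3 (group means over the 12 libraries, mean-variance trend, two-sided, Benjamini-Hochberg, threshold 0.05), and 4945 were left out. The p-values reflect spread among these libraries, which may be technical only. Deviations from group means correlated in all same-numbered pairs for 10 mM and control (0.268, 0.170 and 0.176), the only groups in which every pair passed 0.1, and the labels name no shared batch. The worth of 1 fragment was estimated from transcripts listed in 4 to 9 libraries. Members and lists were chosen with earlier results of these data known. Named transcripts had the largest rises, smallest steps, levels at 20 mM or shares of the rise in 1 step, were listed in no control, or lay nearest the limits; others are marked in the text.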

Additional observations from a re-analysis of the deposited data

How the results depend on the processing

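The rule found 67 transcripts and between 48 (median scaling, 47 of them shared) and 93 (pseudocount of 0.1, 65 shared) when the scaling, filter or pseudocount was changed. It found 51 to 95 without 1 library, and 62 to 106 without 1 replicate number, of which 24 to 30 were among the 67. The median rise, 1.55, was 2.10 with the pseudocount of 0.1 and ran from 1.45 to 1.74 when libraries were left out. At 20 mM against control 29 of 67 members were called. With members chosen anew, the calls were 19 of 48 after median scaling and 23 of 56 after quantile normalization. They were 36 of 93 with the pseudocount of 0.1 and 22 of 50 at a mean of at least 5 FPKM. Of 67 members, 21 were called without a filter and 17 when only control and 20 mM libraries were fitted. The replicate block gave 28 of 67, and robust moderation with no variance trend gave 24 of 67. The calls ran from 0 to 31 when libraries were left out and members chosen anew. The limma count was 0 of 93 without replicate 2 of all groups (85 of 93 at an unadjusted p under 0.05). It was 31 of 59 without 10 mM replicate 1. For the 14 transcripts named by the rule, 318 values were compared with the main fit. Of these, 75 changed from called to not called and 5 the other way. Only transcripts called in the main fit could lose a call, and only the others could gain one. Neither count therefore has all 318 values as its base, and the share of calls lost is higher than 75 of 318. Their direction was fixed by the choice of members and shows nothing about stability. The cause of these changes was not tested, but selections without libraries also hold fewer samples. Filters were applied anew in each selection.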

Other observations

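Among the 67, 12 members formed 6 pairs whose identifier numbers lie at most 5 apart, seen after their values were known. In XM_010101203.1 and XM_010101205.1 replicate 1 was the highest 20 mM library (49.29 and 103.8 FPKM) and the lowest 10 mM library (0.73 and 1.92 FPKM). In XM_010110378.1 and XM_010110379.1 replicate 1 was the lowest at 10 mM (7.43 and 12.79 FPKM) and replicate 2 the highest (47.39 and 109.39 FPKM). XM_010113347.1 and XM_010113349.1 likewise had replicate 1 lowest (16.42 and 136.65 FPKM) and replicate 2 highest (33.38 and 376.56 FPKM) at 10 mM. At 10 mM replicate 1 was lowest in 48 of the 67 and replicate 2 highest in 26, so this order alone does not mark a pair. Deviations from group means correlated at 0.951, 0.956 and 0.924 in these pairs, beside a median of 0.242 over all pairs of members. The other 3 pairs were less alike, at 0.296, 0.233 and 0.671 in the order given next. In XM_010106331.1 and XM_010106335.1 the highest 20 mM library was replicate 2 (4.61 FPKM) and replicate 3 (283.25 FPKM). In XM_010097852.1 and XM_010097855.1 the lowest 20 mM library was replicate 1 (2.54 FPKM) and replicate 2 (1.87 FPKM). In XM_010114050.1 and XM_010114051.1 replicate 3 was the highest at 10 mM (12.87 and 9.28 FPKM), but the lowest there was replicate 1 (8.06 FPKM) and replicate 2 (5.17 FPKM). Whether such pairs share sequence, and so reads, was not tested.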
